A study of Mus musculus with 42 samples.

Results

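Csrp3, Ankrd1, Ankrd2, Ankrd23 and Mustn1 are 5 of the 13809 genes in the table of normalized RNAseq counts from mouse tibialis anterior (TA), a fast muscle of the front of the lower leg. Csrp3 encodes muscle LIM protein, a small protein of the Z-disc and nucleus that is plentiful in heart and in slow fibers. Ankrd1, Ankrd2 and Ankrd23 encode the muscle ankyrin repeat proteins, which bind the spring region of titin in the I-band, can enter the nucleus, and are known for their response to stretch and injury. Mustn1 encodes a small nuclear protein of the musculoskeletal system that is known from regenerating muscle and from bone repair. The genes were picked partly for their large rise on immobilization, so that comparison is described here with no test, and tests are given for denervation and for the sestrin genotypes.

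All mice were males, with an age of 4 months in the sample labels. Sequencing was done in 2 sets, with 22 libraries in set 1 and 20 in set 2, and groups were compared within a set. Set 1 held WT, Sesn1SkM-Tg mice (labelled TgSesn1), which carry human Sesn1 under the muscle creatine kinase promoter, and Sesn2SkM-Tg mice (labelled TgSesn2), in which a muscle creatine kinase promoter drives a tetracycline-regulated activator of a human Sesn2 transgene. For each genotype there were 4 basal libraries, from mice that were not treated, and 3 (WT and Sesn1SkM-Tg) or 4 (Sesn2SkM-Tg) from the immobilized right hindlimb. Set 2 held WT with 4 basal, 4 denervated and 4 immobilized libraries, and mice labelled Sesn1 KO, here Sesn1KO, with 4 basal and 4 immobilized libraries. Immobilization fixed the limb and denervation removed a segment of the sciatic nerve, both for 3 days. Nothing used here states which libraries share an animal or litter, so p-values measure the spread between these libraries.

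The table held values above 0 for every gene in every library, and read depth was not given, so no counting error could be attached. Library sums ran from 722430 to 1276769. In denervated WT muscle they were 722430 to 811541, below every other WT library of set 2 (964609 to 1099736). Sesn1 stood at 41.6 to 77.6 normalized counts in basal Sesn1SkM-Tg muscle against 15.0 to 22.1 in WT, and at 23.0 to 51.1 against 12.4 to 15.2 in immobilized muscle, the lowest of these being replicate 3. Sesn2 stood at 6.54 to 13.0 in basal and 8.01 to 14.5 in immobilized Sesn2SkM-Tg muscle, against 1.86 to 3.39 in WT of set 1. Sesn1 was 8.41 to 10.05 in basal Sesn1KO muscle against 22.5 to 29.7 in WT. In immobilized muscle it was 19.4 to 37.3 against 30.7 to 53.1, and 1 knockout library (labelled Sesn1 KO immobilized, replicate 1), at 37.3, lay inside the WT range. Skeletal fiber markers (Acta1, Ckm, Myh4 and 5 others) summed to between 43063 and 140099 in every library. The 3 cardiac markers in the table (Myh6, Nppa and Myl4) summed to at most 27.2, with 1 called higher and 1 lower on denervation and 0 called on immobilization in WT of either set, and no marker gene was listed at 0.

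The genes lie apart in the genome (GRCm38, GENCODE M21 gene models). Csrp3 (ENSMUSG00000030470) spans chr7:48830398-48848033 on the minus strand. Ankrd1 (ENSMUSG00000024803, chr19:36111961-36120099, minus strand) and Ankrd2 (ENSMUSG00000025172, chr19:42036000-42045110, plus strand) are on the same chromosome. Ankrd23 (ENSMUSG00000067653) spans chr1:36530188-36536883 on the minus strand and Mustn1 (ENSMUSG00000042485) spans chr14:30879200-30881610 on the plus strand. Annotated exon sequence of Ankrd23 lies within the span of Gm42417, a gene on the same strand that the table used here does not list. Whether exons of both genes overlap was not examined, so it is not known if Ankrd23 counts include reads of Gm42417.

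Promoter sequence is shown because Csrp3, Mustn1 and Ankrd1, which all rose on immobilization, parted on denervation. The bases come from RefSeq (GRCm38.p6), 5′ to 3′ on the gene's strand, and only stretches upstream of every annotated exon are given whole. Both Ankrd1 stretches lie inside the annotated Ankrd1 gene. The short Ankrd2 stretch runs into the annotated Ankrd2 gene, and its TATAAA crosses the annotated start (chr19:42036000). Capitals mark CANNTG, the E-box recognized by myogenic factors such as MyoD, or GGAATG, which is CATTCC (the core bound by TEAD factors) on the other strand, or TATAAA.

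Csrp3, chr7:48848052-48848301, minus strand: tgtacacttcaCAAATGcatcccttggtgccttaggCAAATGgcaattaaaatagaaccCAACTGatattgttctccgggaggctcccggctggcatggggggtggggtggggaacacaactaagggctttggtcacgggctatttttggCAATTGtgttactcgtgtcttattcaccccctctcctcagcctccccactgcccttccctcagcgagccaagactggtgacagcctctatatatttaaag
Mustn1, chr14:30879007-30879199, plus strand: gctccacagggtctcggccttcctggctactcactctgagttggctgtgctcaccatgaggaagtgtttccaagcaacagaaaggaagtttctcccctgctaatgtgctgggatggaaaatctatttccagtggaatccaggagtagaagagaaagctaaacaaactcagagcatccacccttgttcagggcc
Ankrd2, chr19:42035777-42035999, plus strand: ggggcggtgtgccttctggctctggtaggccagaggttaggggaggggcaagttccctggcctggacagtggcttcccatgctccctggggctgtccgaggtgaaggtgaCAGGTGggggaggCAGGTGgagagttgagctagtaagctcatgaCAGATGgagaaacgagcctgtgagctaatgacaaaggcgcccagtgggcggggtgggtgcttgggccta
Ankrd2 around TATAAA, chr19:42035986-42036015, plus strand: ggtgcttgggccTATAAAgaccccatgccc
Ankrd1 upstream CATTCC, chr19:36120037-36120066, minus strand: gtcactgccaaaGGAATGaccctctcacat
Ankrd1 downstream CATTCC, chr19:36119950-36119979, minus strand: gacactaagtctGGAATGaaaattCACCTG

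In the 250 bases before the most upstream RefSeq start, searched on both strands, CANNTG was found 4 times for Csrp3, 3 times for Ankrd2, 1 time for Ankrd1 and 0 times for Ankrd23 and Mustn1. It is common, being in 66.2% of 32851 promoter windows of that length. CATTCC was found 2 times for Ankrd1 and for no other member, and 12.6% of all windows hold it. The Ankrd1 and Ankrd23 windows held 0 bases before the first annotated exon, so they lie inside the gene models and not upstream of them. TATAAA was found 1 time, for Ankrd2 (12.4% of windows). TGANTCA, the AP-1 site, was in none of the 5 windows (6.75% of all), nor were the CArG box of SRF (1.47%) or the MEF2 box (2.92%). These matches are letters in a window and were not tested against the expression values.

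Denervation and immobilization were compared with the same basal WT libraries of set 2. These basal libraries also entered the rise on which the genes were picked, and the denervation p-values make no allowance for that. Denervated muscle held more Ankrd1, Ankrd2 and Csrp3 than basal muscle, while Ankrd23 and Mustn1 did not pass the test. A gene was called at a Benjamini-Hochberg adjusted p under 0.05 in limma and a log2 fold change of 0.25 or more in size, on log2(value + 1). By this rule 3 of the 5 genes were called higher and 0 lower, where 27.8% of the 13629 genes tested were called higher and 27.7% lower. Their median log2 fold change was 1.58, against -0.03 over all genes. Every denervated library lay above every basal one for 3 of the 5 genes, as for 27.4% of all genes.

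Ankrd1 was at 18.0, 20.9, 17.9 and 4.82 normalized counts in the 4 basal libraries and at 813, 945, 647 and 777 in the 4 denervated ones. The lowest denervated library stood far above the highest basal one. The log2 fold change was 5.75 (SE 0.54, n = 4 and 4, limma adjusted p = 1.43e-08), the third highest rise in the set. After immobilization Ankrd1 was at 113, 152, 372 and 164, above every basal and below every denervated library.

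Ankrd2 was at 27.6, 35.2, 28.6 and 20.7 in basal muscle and 549, 714, 394 and 327 in denervated muscle. Its log2 fold change was 4.06 (SE 0.28, limma adjusted p = 1.43e-10), and it ranked 18 by size of rise. In immobilized muscle it stood at 595, 425, 843 and 606, a range that overlapped the denervated one.

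Csrp3 was at 7.56, 10.2, 10.9 and 10.1 in basal and at 37.4, 55.7, 20.9 and 20.1 in denervated muscle. The groups did not overlap, as for 27.4% of all genes in this direction. The log2 fold change was 1.58 (SE 0.40, limma adjusted p = 0.0022). Immobilized muscle held 493, 315, 932 and 719, every library above every denervated one.

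Mustn1 was at 33.6, 47.9, 52.2 and 45.7 in basal and at 49.7, 65.5, 44.9 and 29.2 in denervated muscle, and these groups overlapped. The log2 fold change was 0.04 (SE 0.25, 95% interval -0.46 to 0.53, limma adjusted p = 0.91), and its sign turned under quantile normalization (-0.03). In immobilized muscle it stood at 973, 626, 1146 and 970.

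Ankrd23 was the most abundant of the 5 genes per kb of annotated exon in every library of set 2 WT muscle. It was at 2245, 2788, 2569 and 2142 in basal muscle, 2489, 3408, 3586 and 3292 in denervated muscle and 4684, 3947, 4782 and 3314 in immobilized muscle. The denervation log2 fold change was 0.38 (SE 0.21, 95% interval -0.02 to 0.79, limma adjusted p = 0.117) as deposited. It was 1.09 (limma adjusted p = 0.00016) after quantile normalization, and as a percentage of the library sum Ankrd23 made up 0.197 to 0.254% of basal and 0.345 to 0.442% of denervated libraries. The part of the lower denervated library sums in this was not tested.

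**Figure D1:**
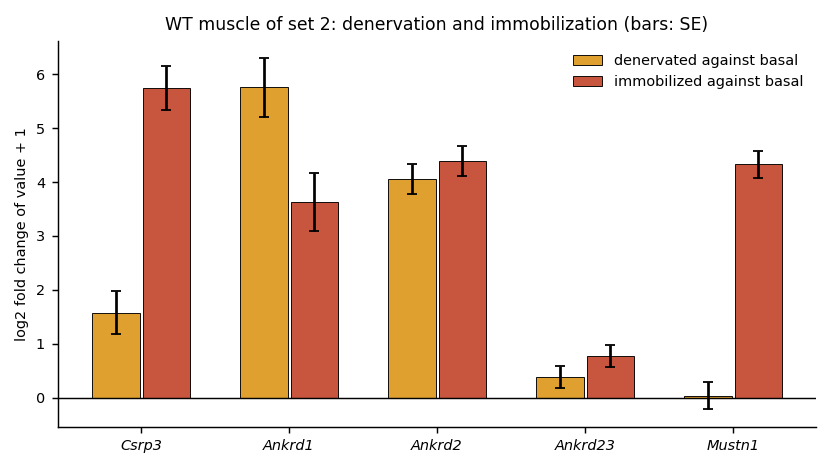
Log2 fold change of value + 1 against basal WT muscle of set 2 for each gene, in denervated (yellow) and immobilized (red) muscle, with SE bars from limma (4 libraries a group). Denervation bars reach 5.75 for Ankrd1 and 0.04 for Mustn1, while immobilization bars reach 5.74 for Csrp3 and 4.33 for Mustn1. Both comparisons share the basal libraries, and the immobilization values are a description of genes picked on that rise.

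Set directly against immobilized muscle, denervated muscle held less Mustn1 (log2 difference -4.29, SE 0.25) and less Csrp3 (-4.17, SE 0.40), and more Ankrd1 (2.12, SE 0.54). Mustn1 and Csrp3 had the lowest values of all 13629 genes in that difference. Ankrd2 differed by -0.34 (SE 0.28) and Ankrd23 by -0.39 (SE 0.21). For 3 of the 5 genes the groups did not overlap, as for 37.6% of all genes, and 38.9% of all genes were called in either direction. Since immobilized libraries chose the genes, these values carry no test. The ratio of Csrp3 to Ankrd1 within a library was 0.026 to 0.059 after denervation, 2.07 to 4.38 after immobilization and 0.42 to 2.09 in basal muscle. The ratio of Mustn1 to Ankrd1 was 0.038 to 0.069 after denervation, 3.08 to 8.61 after immobilization and 1.86 to 9.49 in basal muscle, a range that holds the immobilized one.

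**Figure D2:**
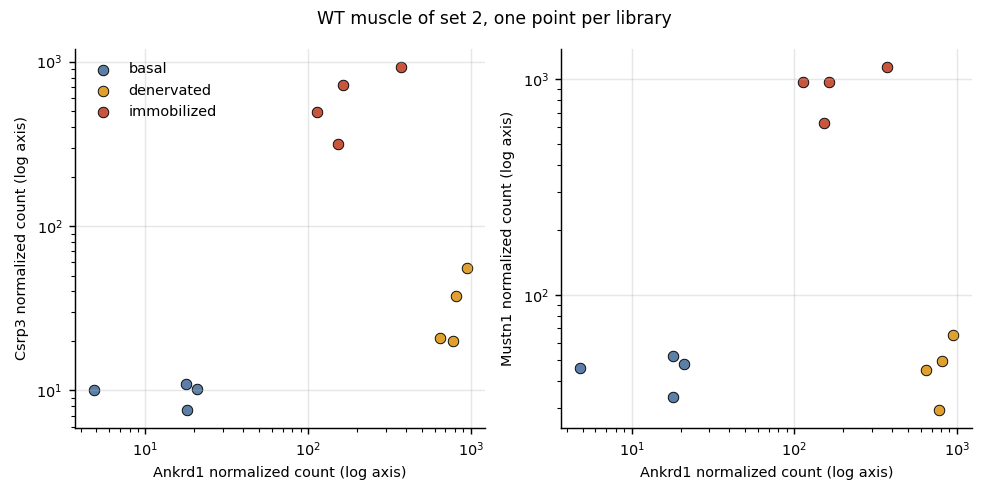
Csrp3 (left) and Mustn1 (right) against Ankrd1 in each WT library of set 2, in normalized counts on log axes. The 4 denervated libraries lie at the right with Ankrd1 at 647 to 945 and Csrp3 at 20.1 to 55.7, and the 4 immobilized ones lie above with Csrp3 at 315 to 932 and Mustn1 at 626 to 1146.

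Per kb of exon, which sets levels of different genes on 1 scale, basal WT muscle of set 2 held 903 ± 110 Ankrd23 (SD, n = 4), 36.3 ± 6.48 Mustn1, 24.6 ± 5.23 Ankrd2, 5.34 ± 2.49 Ankrd1 and 3.63 ± 0.549 Csrp3. The order held in all 4 libraries save for Ankrd1 and Csrp3, which crossed. After denervation the order below Ankrd23 was Ankrd2, Ankrd1, Mustn1 and Csrp3 in all 4 libraries. After immobilization it was Mustn1, Ankrd2, Csrp3 and Ankrd1 in all 4.

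Other gene groups and cell markers were also called between denervated and basal muscle. In bulk muscle, fewer cells of a type and less RNA per cell cannot be told apart. All 10 fast fiber genes were called lower (Myh2, the fast IIa myosin, by -2.60, Casq1 -1.98, Myh4 -1.76 and Myh1 -1.58, log2), and the skeletal fiber markers, 8 of 8 called lower, summed to 43063 to 58079 against 115167 to 125134 in basal muscle. Of 10 slow fiber genes 2 were called higher (Atp2a2 1.196 and Tnni1 1.13) and 3 lower (among them Myl3 -2.55 and Casq2 -1.56), with sums of 105 to 161 against 113 to 244. Of 10 myogenic and regeneration genes 7 were called higher and 0 lower, led by Myog, the myogenic factor myogenin (5.57), the acetylcholine receptor subunits Chrna1 (4.60) and Chrng (3.43), and embryonic myosin Myh3 (3.01). Macrophage and leukocyte markers, 1 of 7 called higher, summed to 41.3 to 110 against 28.3 to 132. Called lower were 5 of 5 endothelial, 4 of 5 smooth muscle, 4 of 4 adipocyte, 2 of 5 fibroblast and 1 of 5 Schwann cell markers, 1 of 3 tendon markers was called higher and 0 of 5 blood markers were called. The part of these groups in the values of the 5 genes was not tested.

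Among genes with related roles, the shares called are read against the 27.8% of all genes called higher and 27.7% called lower on denervation. Of 30 titin-associated and Z-disc genes 8 were called higher and 18 lower (median log2 fold change -0.58), with Myoz3 (-3.03) and Myoz1 (-1.90), which encode Z-disc calsarcins, Capn3 (-2.25), a protease held by titin, and Cryab (2.37), a small heat shock protein of the Z-disc. Of 21 YAP-TEAD genes 10 were called higher and 6 lower (median 0.27), with the target Cyr61 at 2.33, Tead4 at 1.81, and the TEAD cofactor Vgll2 at -1.81. Of 7 AP-1 and ATF3 genes 4 were called higher and 1 lower (median 1.03), with Junb at 2.83, Atf3 at 2.11, Jun at 1.63 and Fosl2 at 1.03. Of 14 SRF and MRTF genes 2 were called higher and 8 lower (median -0.49), with cardiac actin Actc1 at -2.50, the coactivator gene Mkl1 at -1.80, Vcl at 1.08 and Tgfb1i1 at -0.95. Neither of the 2 CSRP relatives, Csrp1 and Csrp2, was called.

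Csrp3, Ankrd1, Ankrd2 and Mustn1 were higher in immobilized than in basal WT muscle by steps larger than those of most genes, which is partly how they were picked. In WT muscle of set 2 the log2 fold changes were 5.74 for Csrp3 (SE 0.40, the highest of 13629 genes), 4.40 for Ankrd2 (SE 0.28), 4.33 for Mustn1 (SE 0.25), 3.63 for Ankrd1 (SE 0.54) and 0.77 for Ankrd23 (SE 0.21). All 5 genes were higher without overlap between the groups, as were 16.2% of all genes, and by the call rule 16.2% of all genes were called higher and 17.7% lower. In WT muscle of set 1 they were 3.63 for Csrp3 (SE 0.79), 3.26 for Mustn1 (SE 0.48), 2.58 for Ankrd2 (SE 0.74), 2.54 for Ankrd1 (SE 0.94) and 0.22 for Ankrd23 (SE 0.21), and 3 of 5 were higher without overlap (as were 16.9% of all genes, with 14.9% called higher and 14.5% lower). Ankrd1 and Ankrd23 were the genes that overlapped there. Ankrd23 did not share the large rise: it ranked 677 by rise in WT of set 2 and 4653 in WT of set 1, where Ankrd1 ranked 9 and 30. Its value also depended on the scaling, with a rise of 0.78 in WT of set 1 after quantile normalization in place of 0.22, and 0.86 in Sesn1SkM-Tg muscle in place of 0.52. Library sums of immobilized WT muscle of set 1 were 830698 to 880365, below the 1064363 to 1159418 of basal muscle, and their part in this was not tested.

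**Figure D3:**
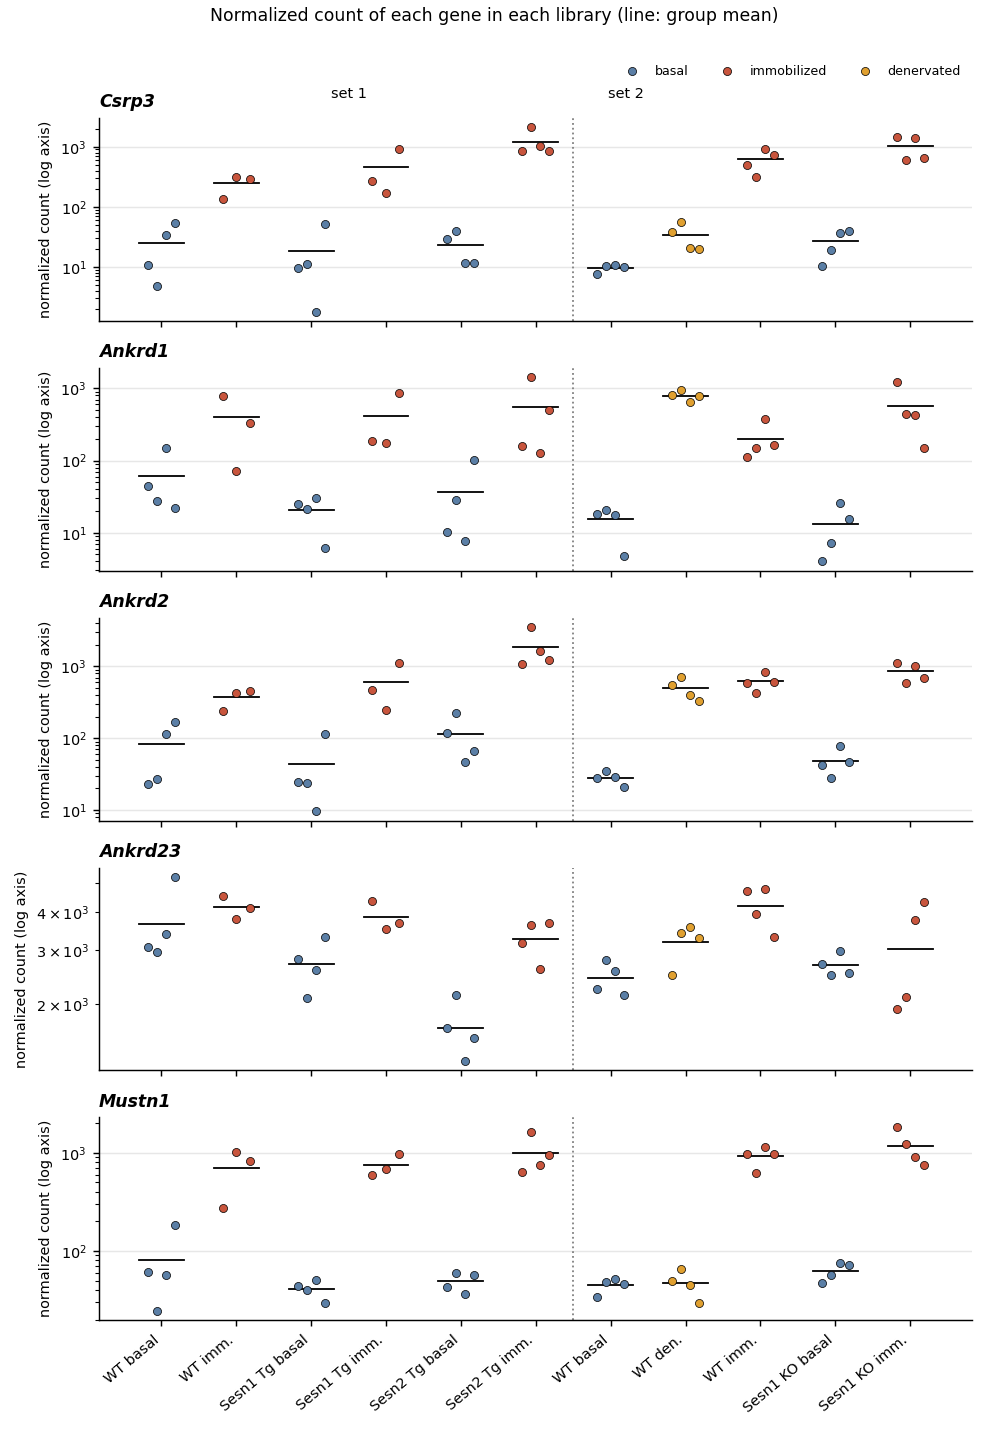
Normalized counts of each gene in every library on a log axis, 1 panel a gene, by group within set 1 and set 2, where points are libraries and lines are group means. Csrp3 in WT muscle of set 2 runs from 7.56 to 10.9 in basal, 20.1 to 55.7 in denervated and 315 to 932 in immobilized libraries, and Ankrd23 lies between 1298 and 5225 throughout.

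The smaller rise in set 1 went with wider basal values. Mean immobilized WT values were also lower than in set 2 for Csrp3 (247 against 615), Ankrd2 (374 against 617) and Mustn1 (706 against 929). For Ankrd1 the mean was higher in set 1 (398 against 200). Levels were not tested between sets. In basal WT muscle of set 1 Csrp3 was at 10.6, 4.72, 33.3 and 52.8, Ankrd2 at 23.3, 26.7, 116 and 169, and Mustn1 at 61.6, 24.5, 57.2 and 182. Replicate 4 was highest for all 3. In immobilized WT muscle of set 1 Csrp3 was at 133, 315 and 294, Ankrd1 at 788, 71.7 and 333, Ankrd2 at 240, 421 and 461, and Mustn1 at 273, 1016 and 828. Replicate 1 was thus the highest for Ankrd1 and the lowest for the other 3. The rise in set 2 exceeded that in set 1 by 2.12 (SE 0.89) for Csrp3 and by 1.82 (SE 0.79) for Ankrd2, values with no test, and the set cannot be told apart from any other difference between these mice.

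Other groups also moved with immobilization. Macrophage and leukocyte markers were called higher for 7 of 7 genes in WT of set 1, with sums of 164 to 347 against 35.3 to 52.7, and for 2 of 7 in set 2, with sums of 97.3 to 193 against 28.3 to 132. In set 1, 3 of 5 fibroblast, 2 of 5 endothelial, 2 of 5 smooth muscle, 3 of 5 Schwann cell, 1 of 4 adipocyte and 1 of 3 tendon markers were called higher, 1 endothelial marker lower, and 0 of 5 blood markers either way. In set 2 there were 0 higher among these lists, and 4 of 5 endothelial, 4 of 5 smooth muscle and 2 of 4 adipocyte markers were called lower. Skeletal fiber markers were called lower for 4 of 8 genes in set 1, and in set 2 for 2 of 8, with 2 higher. The part of other cell types in the values of the 5 genes was not tested.

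Of the related genes, titin-associated and Z-disc genes were called higher for 13 of 30 and lower for 5 in WT of set 2, led by the LIM protein genes Fhl1 (2.55) and Pdlim3 (2.52), filamin C (Flnc, 2.43) and Xirp1 (2.14). In set 1 it was 3 higher and 10 lower, with Pdlim3 at 2.02, Myoz3 at -1.93, Synpo2 at -1.43 and Palld at -1.39. YAP-TEAD genes were called for 5 higher and 3 lower in set 2 and 5 higher and 2 lower in set 1, with Cyr61 at 2.83 and 2.01. AP-1 and ATF3 genes were called for 4 higher and 0 lower in set 2 (Atf3 2.44, Junb 2.20, Fos 1.89) and 1 higher and 0 lower in set 1 (Junb 1.69). SRF and MRTF genes were called for 2 higher and 5 lower in set 2 and 2 higher and 3 lower in set 1, with Actc1 at -1.63 and -1.88. Slow fiber genes were called for 5 higher and 0 lower in set 2, led by slow myosin light chain Myl2 (1.93), and 2 higher and 0 lower in set 1. Fast fiber genes were called for 2 higher and 3 lower in set 2 and 0 higher and 4 lower in set 1. Myogenic genes were called for 2 higher and 1 lower in set 2 and 3 higher and 0 lower in set 1, with Myog at 0.81 and 1.74. Csrp1 (0.86) and Csrp2 (1.73) were called higher in set 1 and neither in set 2. Several of these counts rested on 1 library. Without immobilized WT replicate 3 of set 1, the set 1 counts called higher were 1 titin-associated and Z-disc, 2 YAP-TEAD, 1 SRF and MRTF, 0 AP-1 and ATF3 and 0 slow fiber genes, and without basal WT replicate 4 the first of these was 6. In set 2, 0 fast fiber genes were called higher when 1 library was left out, for each of 6 libraries (the exceptions were basal replicate 2 and immobilized replicate 2), and 0 myogenic genes without immobilized replicate 3. The SRF and MRTF genes called lower in set 2 were 2 to 4 with 1 library left out.

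Csrp3, Ankrd1, Ankrd2 and Mustn1 were higher after immobilization in every genotype, while Ankrd23 varied. In Sesn1SkM-Tg muscle the log2 fold changes were 4.90 for Csrp3, 4.17 for Mustn1, 4.10 for Ankrd2, 4.00 for Ankrd1 and 0.52 for Ankrd23, all 5 without overlap (as were 19.9% of all genes in this direction, with 18.2% called higher). In Sesn2SkM-Tg muscle they were 5.74, 4.24, 4.11, 3.90 and 0.99 in the same order, all 5 without overlap (14.9% of all genes, with 15% called higher). In Sesn1KO muscle they were 5.27 for Csrp3, 5.23 for Ankrd1, 4.16 for Mustn1, 4.15 for Ankrd2 and 0.09 for Ankrd23, with 4 of 5 without overlap (15.2% of all genes, with 17.2% called higher). Against WT of the same set, the Ankrd1 rise in Sesn1KO muscle was larger by 1.60 (SE 0.77) and the Ankrd23 rise smaller by 0.68 (difference -0.68, SE 0.29), while the Csrp3, Ankrd2 and Mustn1 rises differed by -0.47 (SE 0.57), -0.24 (SE 0.39) and -0.16 (SE 0.36). Without the library labelled Sesn1 KO immobilized replicate 1, the Ankrd1 rise in Sesn1KO muscle was 4.72 and the Ankrd23 rise 0.28. In Sesn2SkM-Tg muscle the rise exceeded that in WT of set 1 by 2.11 (SE 1.08) for Csrp3, 1.36 (SE 1.28) for Ankrd1, 1.54 (SE 1.00) for Ankrd2, 0.77 (SE 0.29) for Ankrd23 and 0.99 (SE 0.65) for Mustn1. In Sesn1SkM-Tg muscle it did so by 1.27 (SE 1.12), 1.46 (SE 1.33), 1.52 (SE 1.04), 0.30 (SE 0.30) and 0.91 (SE 0.67) in the same order. Both transgenic lines were set against the same WT libraries, and these differences between genotypes are given without a test.

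**Figure D4:**
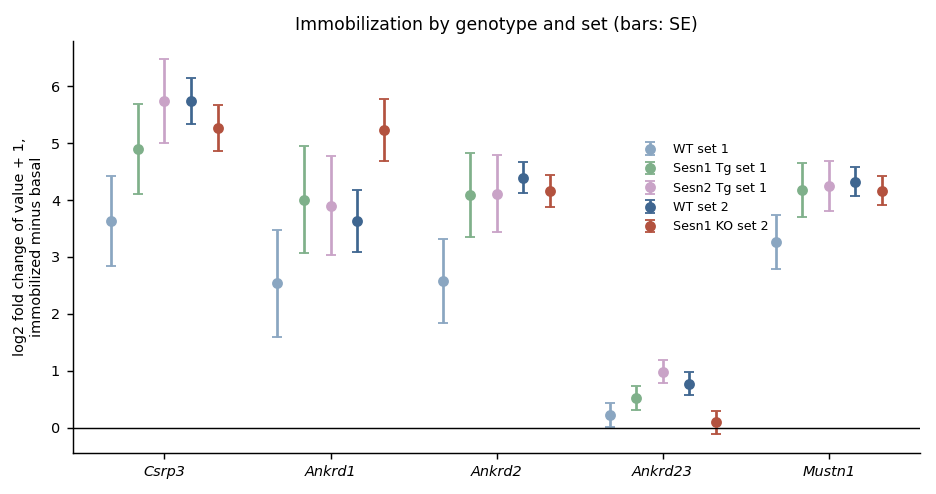
Log2 fold change of value + 1, immobilized minus basal, for each gene by genotype and set, with SE bars from limma. Csrp3 runs from 3.63 in WT of set 1 to 5.74 in Sesn2SkM-Tg and in WT of set 2, and Ankrd23 from 0.09 in Sesn1KO to 0.99 in Sesn2SkM-Tg muscle.

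The genotypes were compared with WT at rest and after immobilization. The paper names littermate controls for each transgenic line and normal WT controls for the knockout. The WT libraries of set 1 are not labelled by line. A difference from WT therefore cannot be assigned to the sestrin level, since line, litter and background cannot be told apart from it. The basal and immobilized libraries compared here also entered the rise on which the genes were picked, and the p-values make no allowance for that. In basal Sesn2SkM-Tg muscle Ankrd23 was at 1671, 2132, 1298 and 1544, against 3072, 2950, 3383 and 5225 in WT, and no libraries overlapped. The log2 fold change was -1.12 (SE 0.20, limma adjusted p = 0.0028), and Ankrd23 was the 1 of 5 genes called, where 2.5% of all genes were called and 8.23% did not overlap. When no other groups were fitted, the limma adjusted p was 0.065. Csrp3 (0.16, SE 0.73), Ankrd1 (-0.98, SE 0.87), Ankrd2 (0.67, SE 0.68) and Mustn1 (-0.38, SE 0.44) were not called.

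In immobilized Sesn2SkM-Tg muscle Csrp3 was at 843, 2103, 1028 and 843, against 133, 315 and 294 in WT. Ankrd2 was at 1082, 3547, 1630 and 1213, against 240, 421 and 461. Every transgenic library was above every WT one for both genes, yet 0 of 5 genes were called and 2 had an unadjusted p under 0.05 in limma, where 2.94% of all genes were called and 18.7% did not overlap. The log2 fold changes were 2.26 for Csrp3 (SE 0.79, 95% interval 0.71 to 3.82, limma adjusted p = 0.119) and 2.20 for Ankrd2 (SE 0.74, 95% interval 0.76 to 3.65, limma adjusted p = 0.104). Both were called when no other groups were fitted (limma adjusted p = 0.025 and 0.031) and with both sets in 1 fit (0.044 and 0.026). Of the summed lists, slow fiber genes were higher at 277 to 584 in the Sesn2SkM-Tg against 177 to 254 in the WT immobilized libraries, and titin-associated and Z-disc genes at 41498 to 52077 against 35949 to 41441. Among the Sesn2SkM-Tg libraries, replicate 2 was highest for Csrp3 and Ankrd2 and had the lowest slow fiber sum (277). The 5 fibroblast markers were lower at 362 to 749 against 757 to 1362, and the 3 cardiac markers at 3.89 to 8.76 against 12.2 to 13.8. The part of these groups in the result was not tested. Ankrd1 (0.39, SE 0.94), Mustn1 (0.60, SE 0.48) and Ankrd23 (-0.35, SE 0.21) were not called, and Ankrd23 did not overlap, with 3802 to 4522 in WT and 2600 to 3673 in Sesn2SkM-Tg muscle.

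Sesn1SkM-Tg muscle did not differ from WT by a called change in any of the 5 genes. At rest 0 of 5 were called, 1 had an unadjusted p under 0.05 in limma (Ankrd23, log2 fold change -0.42, SE 0.20), and 0.0292% of all genes were called. The other log2 fold changes were -0.68 for Csrp3 (95% interval -2.12 to 0.75), -1.27 for Ankrd1 (-2.98 to 0.44), -1.02 for Ankrd2 (-2.36 to 0.32) and -0.64 for Mustn1 (-1.50 to 0.22). After immobilization 0 of 5 were called, 0 had an unadjusted p under 0.05 in limma, and 0.0073% of all genes were called. Csrp3 was at 273, 169 and 913, Ankrd1 at 189, 173 and 869, and Ankrd2 at 470, 251 and 1115, with replicate 3 highest for all 3. The log2 fold changes were 0.59 for Csrp3, 0.19 for Ankrd1 and 0.50 for Ankrd2, and without replicate 3 they were -0.10, -0.56 and -0.07.

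Sesn1KO muscle held no called change either. At rest 0 of 5 were called, 2 had an unadjusted p under 0.05 in limma, and 0.147% of all genes were called. Csrp3 was at 10.2, 19.1, 37.0 and 40.1 against 7.56 to 10.9 in WT (log2 fold change 1.198, SE 0.40, 95% interval 0.41 to 1.99, limma adjusted p = 0.827), and Ankrd2 was at 42.5, 27.7, 76.9 and 46.3 against 20.7 to 35.2 (0.70, SE 0.28). The knockout libraries were thus higher on average and overlapped WT for both genes. The slow fiber sum there was 170 to 347 against 113 to 244 in WT, and its part was not tested.

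After immobilization 0 of 5 genes were called in Sesn1KO muscle against WT, 2 had an unadjusted p under 0.05 in limma, and 0.947% of all genes were called. Ankrd1 was at 1241, 436, 435 and 151 against 113 to 372 (log2 fold change 1.27, SE 0.54, limma adjusted p = 0.29), and without replicate 1 the value was 0.76. Ankrd23 was at 1919, 2106, 3766 and 4334 against 3314 to 4782, so 2 knockout libraries lay below WT and 2 inside it (-0.54, SE 0.21, limma adjusted p = 0.226). Without replicate 4 Ankrd23 was called (-0.74, limma adjusted p = 0.032), and without replicate 1 it was at -0.35. Csrp3 (0.72, SE 0.40), Ankrd2 (0.46, SE 0.28) and Mustn1 (0.30, SE 0.25) were not called.

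Within groups, Csrp3 and Ankrd2 moved together from library to library. Each library's deviation from its group mean on the log2 scale does not use the group differences by which the genes were picked. Over all 42 libraries the deviations of Csrp3 and Ankrd2 had a Pearson r of 0.92 and a Spearman rho of 0.92. Permuting within groups gave p = 1e-05, the smallest value that the permutations can give, and 0.0001 after adjustment over the 10 pairs of genes. The r was 0.89 without the 2 farthest libraries, 0.96 within set 1 (permutation p = 1e-05) and 0.76 within set 2 (permutation p = 0.0028). Csrp3 and Mustn1 had r = 0.53 and rho = 0.55 (adjusted permutation p = 0.0093 and 0.0059), with 0.47 in set 1 and 0.74 in set 2, and 0.75 without the 2 farthest libraries. Ankrd2 and Mustn1 had r = 0.48 and rho = 0.53 (adjusted permutation p = 0.023 and 0.0071), with 0.45 in set 1 (permutation p = 0.059) and 0.64 in set 2. Ankrd1 and Csrp3 had r = 0.14 and rho = 0.23 (adjusted permutation p = 0.53 and 0.27), at -0.02 in set 1 and 0.64 in set 2 (permutation p = 0.0065). Ankrd1 and Ankrd2 had r = 0.18 and rho = 0.25 (adjusted permutation p = 0.51 and 0.25), at 0.06 in set 1 and 0.66 in set 2 (permutation p = 0.0040). Ankrd1 and Mustn1 had r = 0.25 and rho = 0.45 (adjusted permutation p = 0.36 and 0.033), at 0.13 in set 1 and 0.62 in set 2 (permutation p = 0.0098). Ankrd2 and Ankrd23 had r = 0.42 and rho = 0.39 (adjusted permutation p = 0.035 and 0.047), at 0.63 in set 1, 0.13 in set 2 (permutation p = 0.60) and 0.29 without the 2 farthest libraries. The differences between these correlations, and between the sets, were not tested.

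The deviations of Csrp3 and Ankrd2 also ran with those of the summed slow fiber genes, a comparison chosen after the data were seen. The sum adds normalized counts, so abundant genes weigh most: Myl3 reached 373 and Casq2 170 in a library, while Tnni1 reached at most 8.20. Single slow fiber genes were not tested, and basal and immobilized libraries were not examined apart. The relation did not hold in every group. In immobilized Sesn2SkM-Tg muscle, replicate 2 had the highest Csrp3 deviation (0.92) and the lowest slow fiber deviation (-0.42). In immobilized Sesn1SkM-Tg muscle, replicate 3 was highest for both (1.39 and 0.46). For Csrp3 r was 0.69 and rho 0.68 (permutation p = 0.00013 and 0.00012, 0.00195 and 0.0018 after adjustment over 15 relations), with 0.75 in set 1, 0.53 in set 2 and 0.63 without the 2 farthest libraries. For Ankrd2 r was 0.71 and rho 0.65 (adjusted permutation p = 0.0023 and 0.0031), with 0.77, 0.52 and 0.61. For Ankrd1 r was 0.06 and rho 0.09 (adjusted permutation p = 0.77 and 0.63), with -0.10 in set 1 and 0.48 in set 2 (permutation p = 0.094). Mustn1 had r = 0.30 and rho = 0.25 with the slow fiber sum (adjusted permutation p = 0.30 and 0.28). With the macrophage and leukocyte sum Mustn1 had r = 0.37 and rho = 0.47 (adjusted permutation p = 0.054 and 0.032), with r = 0.35 in set 1, 0.48 in set 2 and 0.47 without the 2 farthest libraries. For Ankrd23 r was 0.46 with the slow fiber sum (adjusted permutation p = 0.054) and 0.46 with the library sum, whose rho of 0.51 had an adjusted permutation p of 0.025.

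**Figure D5:**
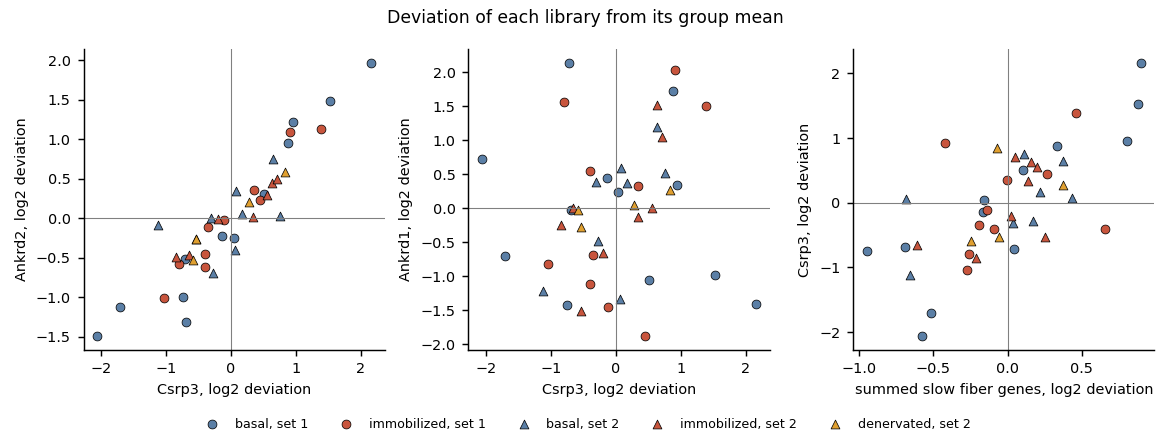
Deviation of each of the 42 libraries from its group mean, in log2 units, for Ankrd2 against Csrp3, Ankrd1 against Csrp3, and Csrp3 against the summed slow fiber genes, with circles for set 1 and triangles for set 2. The points of the first panel lie along a line (r = 0.92), those of the second are scattered (r = 0.14), and those of the last follow more loosely (r = 0.69).

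The genes of the table with the most similar patterns were found by Pearson r of log2(value + 1) over the 22 libraries of set 1 and the 20 of set 2, ranked among 13571 genes by the smaller of both. For Csrp3 they were Lmod2, which encodes a thin filament leiomodin (r = 0.96 in set 1 and 0.96 in set 2), Otulin, a deubiquitinase gene (0.95 and 0.97), and 1810058I24Rik (0.93 and 0.94). For Mustn1 they were Itga7, the muscle laminin receptor integrin (0.96 and 0.94), Otulin (0.94 and 0.95) and Fhl1 (0.93 and 0.95). For Ankrd2 they were the small heat shock protein genes Cryab (0.95 and 0.96) and Hspb7 (0.94 and 0.99), and Myl12a, a myosin regulatory light chain gene (0.93 and 0.98). For Ankrd1 they were Ampd3, an AMP deaminase gene (0.91 and 0.91), the adaptor gene Sh3bp2 (0.88 and 0.91) and the transcription factor gene Runx1 (0.88 and 0.91). For Ankrd23 the values were lower, with Tbcd, a tubulin cofactor gene (0.72 and 0.66), and Nxpe3 (0.65 and 0.72). These correlations run across libraries of all conditions, which share the immobilization difference, and carry no p.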

How the data were processed

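RNA of 42 TA muscles was made into libraries with a NEBNext Ultra kit, which does not mark strand, and sequenced on an Illumina HiSeq. Per the paper's methods and the submitters' processing notes, reads were checked with FastQC, trimmed with Cutadapt 1.7.1, quantified on GRCm38 transcripts with RSEM 1.2.20 and normalized with limma. The values deposited by the authors are normalized counts on a linear scale, handled as a signal, not as whole counts. How the 2 sets were treated, and the read depth, are not given in the sources used here.

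Within each set, genes that reached a value of 1 in any library were tested (13705 in set 1 and 13629 in set 2). The log2(value + 1) was fitted with limma 3.58.1 (R 4.3.3) with a coefficient for each group of the set and a mean-variance trend, and two-sided p-values were adjusted by Benjamini-Hochberg over all genes tested. The script was tested on simulated data. A pseudocount of 1 understates the change of low genes. The 95% intervals use the SE and a normal quantile. Within-group correlations used 100000 permutations within groups (Python 3.11.15, numpy 2.4.6, scipy 1.17.1).

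The members and the lists were chosen with earlier results of these data known. Named beside the 5 genes are the 3 most similar genes of each (1 of them is not reported here), up to 4 called genes of each list with the largest changes, and Sesn1 and Sesn2. Libraries were fitted as unpaired. In no comparison did every same-numbered pair have deviations correlated over 0.1. Single pairs of Sesn1SkM-Tg and WT libraries reached 0.534 in basal and 0.505 in immobilized muscle. With so few pairs, this check cannot exclude shared handling of same-numbered libraries. Alternatives covered the pseudocount, filter, scaling, samples fitted, trend, fold threshold, replicate block and each library left out.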

Additional observations from a re-analysis of the deposited data

Results flagged for a closer look

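In 3 of the 45 combinations of a gene and a group of 4 libraries, 1 library stood apart by Dixon's test (gap to the nearest over the range, at the 95% limit), and chance gives about 1 in 20. Csrp3 was 2103 in immobilized Sesn2SkM-Tg replicate 2, against 843 to 1028 in the other 3, and without that library the difference from WT was 1.96 on the log2 scale. Ankrd1 was 151 in basal WT replicate 3 of set 1, against 22.3 to 44.0 in the others. Ankrd2 was 116 in basal Sesn1SkM-Tg replicate 4, against 9.59 to 24.6 in the others.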

How the results depend on the processing

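The calls on denervation (Ankrd1, Ankrd2 and Csrp3) held under every alternative and with each library left out, at 3 of 5 genes in the latter. Ankrd23 was also called on denervation after quantile normalization and when no other groups were fitted (0.38, limma adjusted p = 0.036), while the log2 fold change of Mustn1 went to -0.031 after quantile normalization. When no other groups were fitted, 0 of 5 genes were called between basal Sesn2SkM-Tg and WT muscle and 2 between the immobilized ones, and with both sets in 1 fit 2 were called between the immobilized ones. The cause was not tested. Asking for a log2 fold change of 1 or more in size, fewer genes of the 8 related gene lists together passed by construction: on denervation 19 higher and 22 lower (33 and 46 at 0.25), on immobilization of WT 10 and 11 in set 1 (18 and 19) and 17 and 4 in set 2 (33 and 17). With 1 library left out, the count called higher in set 1 ran from 9 (without immobilized WT replicate 3) to 19, and the number of members called in immobilized Sesn1KO muscle from 0 to 1. Values that changed sign with 1 library left out, none of them called, ran from -1.40 to 0.0035 (Csrp3) in basal Sesn1SkM-Tg muscle. In immobilized Sesn1SkM-Tg muscle they ran from -0.10 to 1.11 (Csrp3), -0.75 to 0.97 (Ankrd1), -0.067 to 1.01 (Ankrd2) and -0.31 to 0.64 (Mustn1). In Sesn2SkM-Tg muscle they ran from -0.41 to 0.66 (Csrp3, basal), -0.83 to 0.12 (Mustn1, basal) and -0.55 to 1.17 (Ankrd1, immobilized). They ran from -0.77 to 0.076 for Ankrd1 in basal Sesn1KO muscle, -0.11 to 0.28 for the Ankrd23 rise in Sesn1KO muscle and -0.13 to 0.25 for Mustn1 on denervation. A replicate block left the number of members called at 3 on denervation, 1 in basal Sesn2SkM-Tg muscle and 0 in the other 5 genotype comparisons, and moved the list count called higher on immobilization of WT in set 1 from 18 to 17, with 19 lower in both. The unknown read depth limits the low values of Ankrd1 and Csrp3 in basal muscle most.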
